A study of Drosophila melanogaster with 6 samples.

Results

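Muscle myosin heavy chain, Mhc (FBgn0264695), is the motor of the muscle thick filament, and its RNA varied widely between the 18 RNA-Seq libraries of Drosophila follicle cells. The genes described here are the 100 genes whose level followed that of Mhc most closely. They were taken from the 7721 genes with a mean of at least 50 normalized counts over the libraries, of 17493 in the matrix, as those with the highest Pearson r of log2(normalized count + 1) with Mhc. Mhc itself and the actin genes were left out of the ranking. A normalized count is a gene's estimated read count divided by a size factor of its library. The members were thus chosen by measured values of all 18 libraries, so their correlations are a description and have no test.

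The ovaries came from 6 groups of flies with 3 libraries each, and every library was made from 30 pairs of ovaries. All flies carried the traffic jam-GAL4 driver (tj-GAL4), which is active in somatic cells of the ovary. LP flies had an empty landing pad and no AKT1 transgene. WT flies expressed human AKT1, the kinase downstream of PI3K, under UAS control with a 3xFLAG tag, and the T1, T15, T5 and Q79K-W80R flies expressed mutated forms of it. T1, T15 and T5 carry in-frame tandem duplications in the pleckstrin homology domain and Q79K-W80R carries a pair of substitutions there. The transgenes were integrated at the same site. Cells were freed from the ovaries by trypsin and collagenase and strained through a mesh, and no sort is described. The age of the flies is not given in the sources used here. Human AKT1 was not among the genes measured, so the genotypes were not checked in these values.

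Follicle cells are an epithelium around the germline and are not muscle. The ovary is also wrapped in muscle, an epithelial sheath around each ovariole and a peritoneal sheath around the whole ovary, and oviduct and gut muscle lie next to it. In striated muscle, myosin thick filaments slide along actin thin filaments, which troponin and tropomyosin switch on when calcium is released from the sarcoplasmic reticulum. The Z disc anchors the thin filaments. In a bulk library, fewer muscle cells and less RNA per muscle cell cannot be told apart.

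The muscle list genes that were members stood mostly in the first 30 ranks. Of the first 30 genes 12 were on a muscle list, and of the 70 genes from rank 31 to 100 only 2 were, so the label of a muscle sheath program does not describe the whole set. By the choice of members the median r falls with rank. Among the first 30 genes it was 0.88, and 26 of them kept an r of at least 0.5 when WT library 2 and T1 library 1, with the highest and the lowest Mhc, were left out. From rank 31 to 100 the median r was 0.60, and 7 of 70 kept an r of at least 0.5. These genes had begun nearer to that level, at 0.555 to 0.742, so both counts are a description. Over all 7721 genes the median r was -0.00084, and 24 genes reached 0.8. The last members were mdu at r = 0.558, IA-2 at 0.557 and CG2852 at 0.555, and the next genes below them were CG41128 at 0.554, CG7916 at 0.552 and Jhbp5 at 0.552, so the boundary fell in a continuous range. Of 54 genes on 5 muscle lists, 53 were matched, 36 had a mean of at least 50 (Mhc among them), and 14 were members. The listed genes are shared by muscles of the ovary and of other organs, so they do not single out the sheath.

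Mhc itself was measured at 447, 449.7 and 514 normalized counts in the LP libraries. It was at 692, 2053 and 396 in WT, at 103, 353 and 294 in T1, and at 319, 265 and 246 in T15. In T5 it was at 523, 896 and 546, and in Q79K-W80R at 375, 340.1 and 351. WT library 2 stood far above all others and T1 library 1 far below, and the WT range took in all of LP and T5. The group means ± SD (n = 3) were 470.1 ± 37.8 in LP, 1047 ± 884 in WT, 249.8 ± 131 in T1, 277 ± 38.0 in T15, 655 ± 209 in T5 and 355 ± 17.9 in Q79K-W80R. In order, WT was followed by T5, LP, Q79K-W80R, T15 and T1. Of these neighbors, WT and T5 overlapped, as did T15 and T1, and the libraries of the other neighbors did not. At the sequencing depth of these libraries, Mhc in T1 library 1 rested on about 114 reads and in WT library 2 on about 1667.

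**Figure D1:**
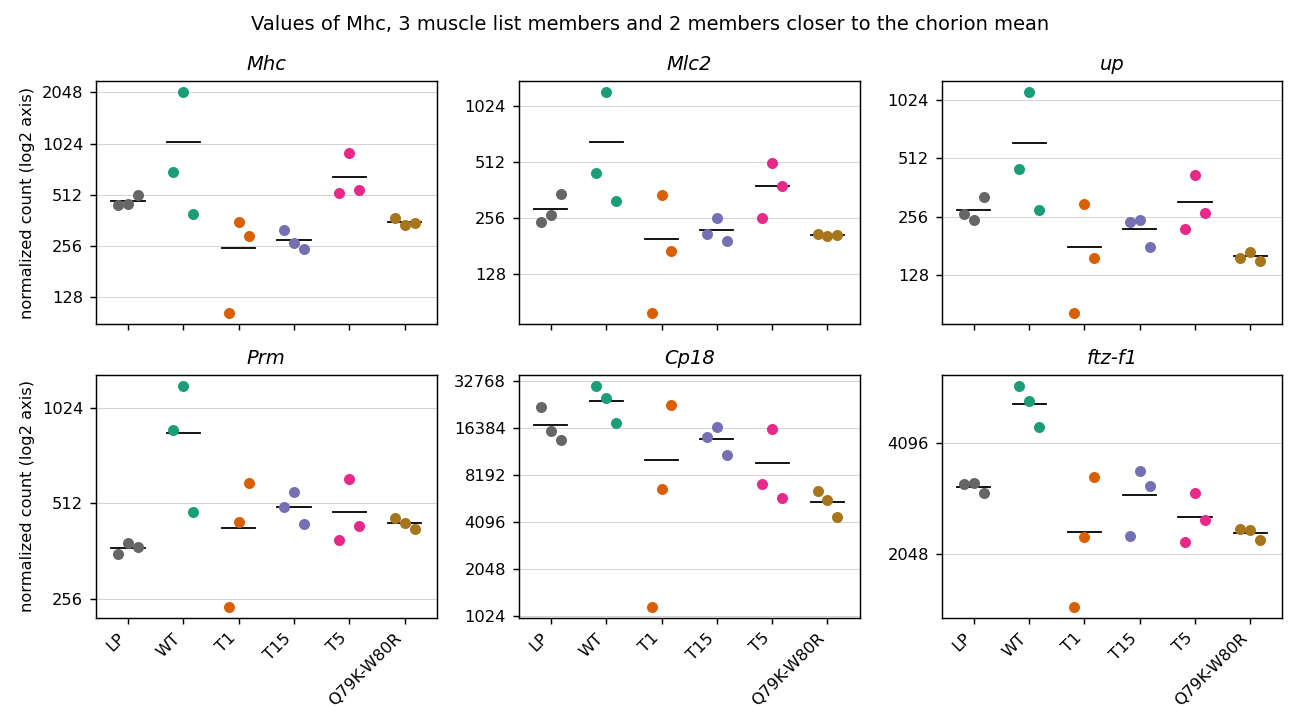
Normalized counts (log2 axis) of Mhc and of the members Mlc2, up, Prm, Cp18 and ftz-f1 in each of the 18 libraries, by group. Points are libraries in the order 1 to 3 and bars are group means. Mlc2, up and Prm share with Mhc the highest library, WT 2, and the lowest, T1 1, and Cp18 and ftz-f1 have their highest value in WT library 1.

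Of the 9 thick filament genes that could be ranked, 5 were members, and the list had a median r of 0.74. Mlc2, the regulatory light chain of myosin, had r = 0.95 and stood second in the ranking. Its values were 242, 265 and 344 in LP, 444, 1215 and 314 in WT, 78.4, 341 and 171 in T1, 209, 256 and 191 in T15, 256, 507 and 379 in T5, and 211, 203 and 207 in Q79K-W80R. WT library 2 was again the highest and T1 library 1 the lowest. The essential light chain Mlc1 (r = 0.86), Mf, which encodes myofilin (0.88), and Obsc, the giant kinase of the M line called obscurin (0.90), followed. Myofilin was at 445, 1009 and 245 in WT and at 120.0, 117 and 114 in Q79K-W80R, and these groups did not overlap.

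Prm, which encodes paramyosin of the thick filament core, went with Mhc less closely (rank 31, r = 0.74). It was at 353, 385 and 372 in LP, 872, 1207 and 481 in WT, 241, 446 and 593 in T1, 499, 557 and 442 in T15, 393, 612 and 434 in T5, and 459, 445 and 424 in Q79K-W80R. The LP libraries lay below 11 of the 12 mutant libraries in Prm, although LP had more Mhc than T15 and Q79K-W80R. Without WT library 2 and T1 library 1 the r of Prm with Mhc was 0.23. Its slope on Mhc was 0.43 on the log2 scale, where Mlc2 had 0.87.

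Of the 7 thin filament genes, 4 were members, and the list's median r of 0.90 was above that of the thick filament list. The members were Tm2, a tropomyosin (r = 0.93), wupA, troponin I (0.93), up, troponin T (0.92), and TpnC73F, a troponin C (0.90), with slopes on Mhc of 0.88, 0.94, 0.83 and 0.77. up was at 266, 247 and 324 in LP, 449, 1127 and 279 in WT, 81.4, 297 and 157 in T1, 242, 246 and 179.7 in T15, 221, 422 and 269.5 in T5, and 158, 169.5 and 152 in Q79K-W80R. Every Q79K-W80R value of up was below every value of LP, WT, T15 and T5. Per kilobase of exon the mean levels over the libraries were 56.2 normalized counts for Mhc, 142 for Mlc2, 116 for up, 99.9 for wupA, 95.6 for Prm, 80.6 for Tm2, 76.0 for Mlc1 and 71.5 for TpnC73F. Most sarcomere members thus lay within a few times of Mhc per length, and Obsc was the lowest at 5.41.

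The actin genes, kept out of the ranking, divided in the same manner. Act57B and Act87E, which are muscle actins, had r = 0.92 and 0.87 with Mhc, and Act5C and Act42A, the cytoplasmic actins of all cells, had -0.20 and -0.34. TpnC47D, another troponin C, and tn, the muscle TRIM protein thin, had r of 0.89 and 0.90 but means of 29.6 and 45.5, under the minimum of 50. RyR, the calcium release channel, had 0.73 at a mean of 47.2.

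At the Z disc and the attachment site, Zasp66 (r = 0.88), a PDZ and LIM domain family protein, and the muscle LIM proteins Mlp60A (0.85) and Mlp84B (0.81) were members. Mlp84B varied less than Mhc, with a slope of 0.56, and its lowest value, 34.5, was in T15 library 2 and not in T1 library 1, where it was 45.5. Of the sarcoplasmic reticulum list, SclB (0.79), sarcolamban B, a small peptide that binds the calcium pump, and jp (0.73), junctophilin, were members. SclB was at 111, 82.8 and 119 in LP, 295, 387 and 78.5 in WT, 26.7, 115 and 48.8 in T1, 80.3, 49.5 and 69.2 in T15, 47.3, 140.3 and 73.9 in T5, and 41.6, 31.7 and 36.4 in Q79K-W80R. The Q79K-W80R values of SclB lay below those of all WT and LP libraries. Junctophilin was at 369.8 in WT library 2 and between 113 and 207 in the other 17 libraries, and its r fell to 0.24 without WT library 2 and T1 library 1.

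Other genes of the muscle lists did not follow Mhc, among them several that other ovary cells also use. The integrin adhesion genes rhea (talin) and mys (the beta integrin) had r = -0.21 and -0.31, the filamin gene cher -0.39, and Zasp52 -0.12. Tm1, the other tropomyosin gene, had 0.26, SERCA, the calcium pump, 0.25, and Msp300, a giant nesprin, 0.082. The giant sarcomere genes sls and bt had 0.49 and 0.15. None of the 2 muscle transcription and RNA factors with a mean of at least 50 was a member, with Mef2, the muscle transcription factor, at -0.27 and how at 0.43. None of the 8 muscle energy enzymes was a member. In all, 21 muscle list genes with a sufficient mean stayed out of the set.

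Several members on no list have a known place in muscle, and they were picked out after their values were seen. Mp20, a calponin-like muscle protein, had r = 0.82 and was at 627, 1367 and 402 in WT and 190.0, 206 and 172 in Q79K-W80R. Per kilobase its mean level was 386, which is 6.87 times that of Mhc. The FGF receptor gene htl, which acts in muscle progenitors, had r = 0.79, and stumps, the adaptor of that receptor, had 0.67. stumps had a higher r, 0.81, with the mean of chorion genes described below. htl was at 101, 117 and 126 in LP, above all libraries of the 4 mutated forms, which lay between 16.3 and 83.5, and at 112, 327 and 42.6 in WT. The small heat shock gene l(2)efl (0.70) was at 215.6 in WT library 2 and at no more than 91.8 elsewhere. Without WT library 2 and T1 library 1 the r with Mhc was 0.54 for Mp20 and for htl, 0.24 for stumps and 0.15 for l(2)efl.

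The gene with the highest r of all was CG45078 (0.96), at 58.2, 46.5 and 47.8 in LP, 84.3, 214 and 48.3 in WT and 6.31, 53.0 and 21.6 in T1. CG45078 overlaps fau in the Ensembl annotation, and fau overlaps CG45076 (r = 0.93), all on 1 strand, so reads of these 3 members could be shared and their values are uncertain. The same holds for Pif1A and Pif1B, which overlap each other. CG5177 (0.93), Neurochondrin (0.90), eEF1alpha2, a translation elongation factor (0.89), and CG5612 (0.88) were other members in the first ranks.

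The other members followed a second set of genes more closely than Mhc. For each member, r was also taken with the mean of 9 chorion genes, which late follicle cells use to build the eggshell. This division was made after the values were seen. It put 50 members closer to Mhc and 50 closer to the chorion mean, and all 14 muscle list members were in the first 50. The 50 closer to Mhc had a median r of 0.79 with Mhc and 0.54 with the chorion mean. The 50 closer to the chorion mean had a median r of 0.59 with Mhc and 0.89 with the chorion mean, and 22 of them reached 0.9. Cp16 and Cp18, counted among these 22, are 2 of the 9 genes in that mean, so their r is partly with themselves. Members were placed by the larger r, so the medians of each side follow in part from the division. Mhc and the chorion mean themselves had r = 0.56 over 18 libraries and 0.077 over the 16 without WT library 2 and T1 library 1.

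**Figure D2:**
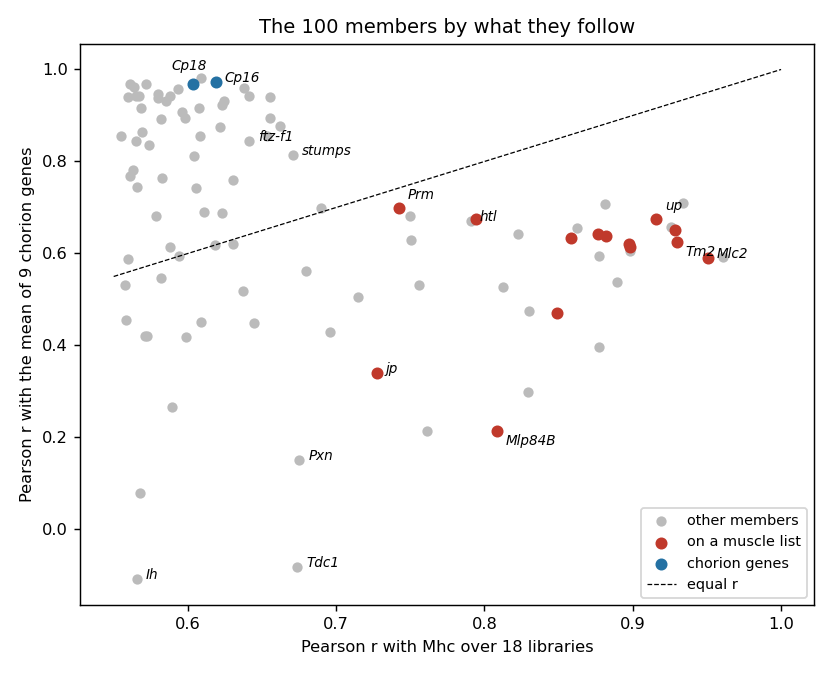
Pearson r of each of the 100 members with Mhc (x axis) and with the mean of 9 chorion genes (y axis), on log2(normalized count + 1) over 18 libraries. Red points are the 14 members on a muscle list, blue points are Cp16 and Cp18, and the dashed line marks equal r. The red points all lie below the line, and 50 of the 100 points lie above it.

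Since Mhc and the chorion mean had little correlation over these 16 libraries, members that follow the chorion mean could not keep a high r with Mhc there, and the values that follow are a description. Among the 50 members closer to Mhc the median r became 0.61 and 32 stayed at 0.5 or above. Among the 50 closer to the chorion mean it became 0.11, and only CG9171, at 0.59, stayed at that level. Of 100 members, 78 had their highest value in WT library 2 and 77 their lowest in T1 library 1.

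**Figure D3:**
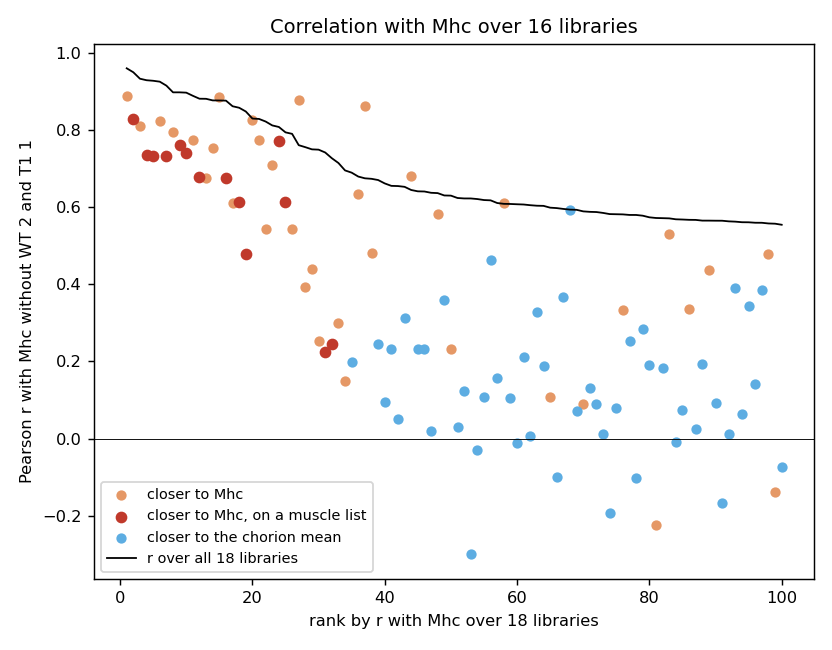
Pearson r with Mhc over the 16 libraries other than WT 2 and T1 1 (y axis) for each member, by its rank over 18 libraries (x axis). The black line is r over all 18 libraries. Orange and red points (closer to Mhc) have a median of 0.61 and blue points (closer to the chorion mean) a median of 0.11.

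The members closer to the chorion mean were, as a rule, genes of higher level. Their median over members of the mean normalized count was 798, against 136 for the members closer to Mhc. Cp18, a major chorion protein, was at 22289.7, 15839 and 13812 in LP, 30752, 25505 and 17818 in WT, 1164, 6659 and 23110.2 in T1, 14461, 16597 and 11086 in T15, 7227, 16265 and 5874 in T5, and 6428, 5663 and 4375 in Q79K-W80R. Cp16, which lies in the same chorion gene cluster with 2 genes between, had r = 0.99 with it. T1 library 3 was among the highest in Cp18 and below the median in Mhc, and T1 library 1 was the lowest in both. Of the 9 chorion genes only Cp16 and Cp18 were members, and the 9 had r with Mhc between 0.51 and 0.62, a range that straddles the last rank.

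The nuclear receptor genes ftz-f1 and Eip78C, named after their values were seen, were also closer to the chorion mean. ftz-f1 (r = 0.64 with Mhc) was at 3167, 3175 and 2997 in LP, 5839.8, 5318 and 4513 in WT, 1471, 2271 and 3302 in T1, 2286, 3426 and 3127 in T15, 2206, 2985 and 2532 in T5, and 2385, 2371 and 2235 in Q79K-W80R. All WT libraries were above all others. Eip78C (0.59) was at 373, 426 and 325 in WT and at 99.4, 77.2 and 70.1 in Q79K-W80R. Other members of known role here were wgn, a TNF receptor, mnd, an amino acid transporter, Timp, the inhibitor of matrix metalloproteinases, aos, the secreted inhibitor of the EGF receptor, and dati, a zinc finger factor. The members with the highest means were CG14309 (29166), CG2852 (28399), Cp18 (13607), Ir7c (7290.4) and CG14834 (5389.7), and all 5 were closer to the chorion mean.

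A few members closer to Mhc had little or no correlation with the chorion mean. Tdc1, a tyrosine decarboxylase, had r = 0.67 with Mhc and -0.082 with the chorion mean, and was at 118, 115 and 94.3 in Q79K-W80R, above LP (70.7, 48.9 and 69.2). Ih, a cation channel, had 0.57 and -0.11. Pxn, peroxidasin of the basement membrane and a marker of hemocytes, had 0.68 and 0.15, and its r without WT library 2 and T1 library 1 was 0.86. The other hemocyte genes with a mean of at least 50 were not members, and the median r of the 3 such genes was 0.094. Unlike these, nrv2, a subunit of the sodium pump that was on the glia list, had 0.57 with Mhc and 0.86 with the chorion mean, and the median r of that list's 3 genes was -0.16.

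Members of these sets were in places neighbors on the chromosome. Prm lies next to Cp16 in the Ensembl annotation, with no gene between, on opposite strands and without overlap. The r of this pair was 0.71, close to that of Prm with Mhc (0.74), and Prm had the r with the chorion mean (0.70) that was highest among the 14 muscle list members. Counting by strand is not stated for these values, so shared reads at this site were not tested. Of the 100 members, 7 pairs lay with at most 2 genes between them. Among these pairs, Zasp66, closer to Mhc, and Cpr66D, closer to the chorion mean, also joined the sets, with 1 gene between (r = 0.66).

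The ratio of muscle genes to Mhc was not the same in every group. The mean log2 level of the 14 muscle list members minus that of Mhc was between -1.37 and -1.16 in T15 and between -1.56 and -1.09 in T1. It was between -2.05 and -1.79 in T5 and between -1.96 and -1.80 in Q79K-W80R. The LP libraries lay between -1.79 and -1.72 and the WT libraries between -1.94 and -1.53. This difference was therefore higher in all T15 and T1 libraries than in all LP, T5 and Q79K-W80R libraries. The 14 genes had a median slope on Mhc of 0.85 on the log2 scale. T1 and T15 had the lowest group means of Mhc. Q79K-W80R, the group next above them in Mhc, had lower differences than LP in all libraries. How far the level of Mhc goes with the difference was not tested. These values were read after the members were chosen and have no test.

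Genes of other organs changed between libraries as well. The summed level of 19 midgut digestive enzymes was 3567 to 8226 in LP, 22 to 14903 in WT, 26 to 5676 in T1, 5.75 to 167 in T15, 1033 to 2222 in T5 and 6.29 to 15.8 in Q79K-W80R. WT library 1 had 21.9 of it beside an Mhc of 692, and WT library 3 had 11193 beside an Mhc of 396. The 13 enzymes with a mean of at least 50 had r with Mhc between 0.31 and 0.46, and none was a member. The summed hemocyte list ranged from 2809 to 5005 in WT and from 7279 to 8142 in Q79K-W80R. The mean log2 level of that list overlapped, at 4.51 to 5.90 in WT and 5.19 to 5.55 in Q79K-W80R. By limma 1 of its 8 genes tested was higher and 0 lower, at an adjusted p under 0.05 and at least 1.5-fold. Of all genes tested in Q79K-W80R versus WT, 15.1% were called at these thresholds in either direction. The summed neuron list ranged from 502 to 589.6 in WT and from 535 to 584 in Q79K-W80R. For the summed trachea list the ranges were 129 to 155 and 139 to 196. The mean log2 level of the trachea list did not overlap, at 3.39 to 3.60 in WT and 4.18 to 4.35 in Q79K-W80R. By limma 2 of its 4 genes tested were higher in Q79K-W80R and 1 lower, at the same thresholds. The summed ovarian soma list, genes of the labelled cell type, was at 32678 to 39024 in LP, 35753 to 44310.3 in WT, 28636 to 37764 in T1, 32069 to 35638 in T15, 28156 to 36129 in T5 and 25704 to 29591 in Q79K-W80R. The ranges of WT and Q79K-W80R did not overlap. By limma 3 of the 8 genes were lower and 1 higher in Q79K-W80R, at an adjusted p under 0.05 and at least 1.5-fold. This stands beside the same 15.1% of all genes tested, and whether the lists differ from all genes was not tested. The part of these other cells in the levels of the members was not tested. The libraries held 23572559 to 34164960 normalized counts, and WT library 2 had the highest total and the highest mitochondrial share, 22.1%, where the lowest was 2.77%.

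Members were then followed in the comparisons of the study, with limma on log2(normalized count + 1) over all genes tested. A gene was called a DEG where it differed by at least 1.5-fold and its Benjamini-Hochberg adjusted p was under 0.05. The ranking had used the same libraries, so that members share the direction of Mhc by choice, and the counts are given beside the share of all genes without a reading of the difference. By this limma test Mhc was a DEG in none of the comparisons. Its Log2FC was 0.82 for WT versus LP (SE 0.52, limma adjusted p = 0.492) and -1.27 for the 12 mutant libraries versus WT (SE 0.49, adjusted p = 0.154). The fit of the mutants took the mutated forms as a single group, so differences between the forms add to its SE. The paper used DESeq2, and it names Mhc among DEGs that it checked by RT-qPCR for T5 and Q79K-W80R against WT.

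In WT versus LP, 2 of 100 members were called higher, Eip78C (Log2FC 1.09, SE 0.15, limma adjusted p = 0.0406) and Baldspot, a fatty acid elongase (0.64, SE 0.093, adjusted p = 0.0418), beside 0.353% of all genes tested. All 14 muscle list members had a Log2FC above 0, with a median of 0.94 where all genes had 0.0088, and none was called. An unadjusted limma p under 0.05 was found for 4 of the 14, beside 15.5% of all genes tested. Their smallest adjusted p was 0.165, of Prm at 1.11 (SE 0.30). Neither Eip78C nor Baldspot was called when LP library 1 was left out, at adjusted p values of 0.222 and 0.235, and no member was called without any 1 of the 3 LP libraries or without WT library 1 or 2. Without WT library 3, 17 were called.

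In the mutants versus WT, 14 members were called lower, beside 1.02% of all genes tested. All 100 members had a Log2FC below 0, with a median of -0.94, against 4966 of all 9605 genes. Of the muscle lists, Mf (-1.61, SE 0.41, adjusted p = 0.0413) and SclB (-1.87, SE 0.49, adjusted p = 0.0428) were called. tnc, the matrix protein tenectin (-1.95, SE 0.48, adjusted p = 0.0379), SclB and CG5612 (-1.84, SE 0.43, adjusted p = 0.0277) had the largest falls among the members called. CG32642 (-1.98, adjusted p = 0.0694) and dati (-1.89, adjusted p = 0.126) were as far from WT and were not called. The smallest adjusted p was of ftz-f1 (-1.06, SE 0.19, adjusted p = 0.00999), whose WT libraries did not overlap with the mutants. Groups did not overlap for 13 members, beside 4.31% of all genes tested. All 13 were closer to the chorion mean, but the sides were divided on these same libraries, so this is a description. The calls changed with the WT libraries. Without WT library 1 no member was called, although the median Log2FC of the members was -0.96, without WT library 2 only ftz-f1 was called, at a median of -0.63, and without WT library 3, 11 members were. Without T5 library 1 or 3, or without any 1 of the Q79K-W80R libraries, 5 or 6 were called, and without T15 library 2 or T5 library 2, 23 and 24.

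In the single mutants, the parts of the set were set against WT one by one. In T15 versus WT the 50 members closer to Mhc had a median Log2FC of -1.11 and the 50 closer to the chorion mean -0.46. In T5 versus WT the medians were -0.61 and -0.93, and in T1 versus WT they were -1.03 and -1.22. In Q79K-W80R versus WT they were -1.19 and -0.99. These comparisons share the WT libraries, and the difference between them was not tested. The 14 muscle list members had medians of -1.73 in T1, -1.28 in T15, -0.63 in T5 and -1.45 in Q79K-W80R.

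Few of these differences passed the test outside Q79K-W80R. In T1, no member was called beside 0% of all genes tested, and 64 of 100 had an unadjusted limma p under 0.05 beside 10.5% of all genes. Without T1 library 3, 20 members were called. In T15, CG1698 was called lower (-0.99, SE 0.12, adjusted p = 0.0253) beside 0.0787% of all genes. With the replicate number as a block, 16 members were called lower beside 1.26% of all genes. Of these, 5 were closer to Mhc and 2 on a muscle list. Deviations from the group mean correlated only weakly between T15 and WT libraries of equal number (0.15, 0.17 and 0.12). No label states a pairing, so the fit without the block is the one reported. CG1698 was not called without T15 library 1, 2 or 3 or without WT library 1 (adjusted p of 0.186 without T15 library 3), and without WT library 3, 7 members were called. In T5, ftz-f1 was called lower (-1.02, SE 0.15, adjusted p = 0.0487) beside 0.275% of all genes, and it was not called without any 1 WT library or without T5 library 1 or 3. Without T5 library 2, 26 members were called.

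In Q79K-W80R versus WT, 48 members were called lower and none higher, beside 6.33% of all genes tested called lower. Of these, 33 were closer to the chorion mean and 15 closer to Mhc. The largest falls were those of CG5644 (-2.72, SE 0.16, limma adjusted p = 0.000118), dati (-2.68, SE 0.17, adjusted p = 0.000128) and SclB (-2.48, SE 0.55, adjusted p = 0.0178). CG5644 was at 508, 655 and 453 in WT and at 80.4, 78.0 and 81.3 in Q79K-W80R. Cp18 had a Log2FC of -2.15 (SE 0.22, adjusted p = 0.000722), and all 9 chorion genes were called lower. On the muscle lists, 2 of 10 thick filament genes tested, 2 of 8 thin filament genes, 1 of 14 Z disc genes and 1 of 6 sarcoplasmic reticulum genes were called lower. They were Mf (-2.02, SE 0.45, adjusted p = 0.0183), Mlc1 (-1.79), up (-1.70, SE 0.45, adjusted p = 0.0351), TpnC73F (-1.48), Zasp66 (-1.90) and SclB. 1 Z disc list gene was called higher, and it was no member.

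When each of the 6 libraries was left out in turn, 29 of the 33 called members closer to the chorion mean kept an adjusted p under 0.05 in every fit, and 0 of the 15 closer to Mhc did. The latter had begun nearer to the threshold, and whether the parts differ in this was not tested. The median Log2FC of the 14 muscle list members was between -1.47 and -1.44 without each Q79K-W80R library, and -0.90 without WT library 2. up had an adjusted p of 0.116 without Q79K-W80R library 3 and Mf one of 0.071, and CG5644 stayed at 0.0019 or below. The count of members called was 30 without Q79K-W80R library 1, 31 without library 3 and 76 without WT library 3. Groups did not overlap for 79 members beside 43.1% of all genes tested, and for 10 of the 14 on muscle lists.

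**Figure D4:**
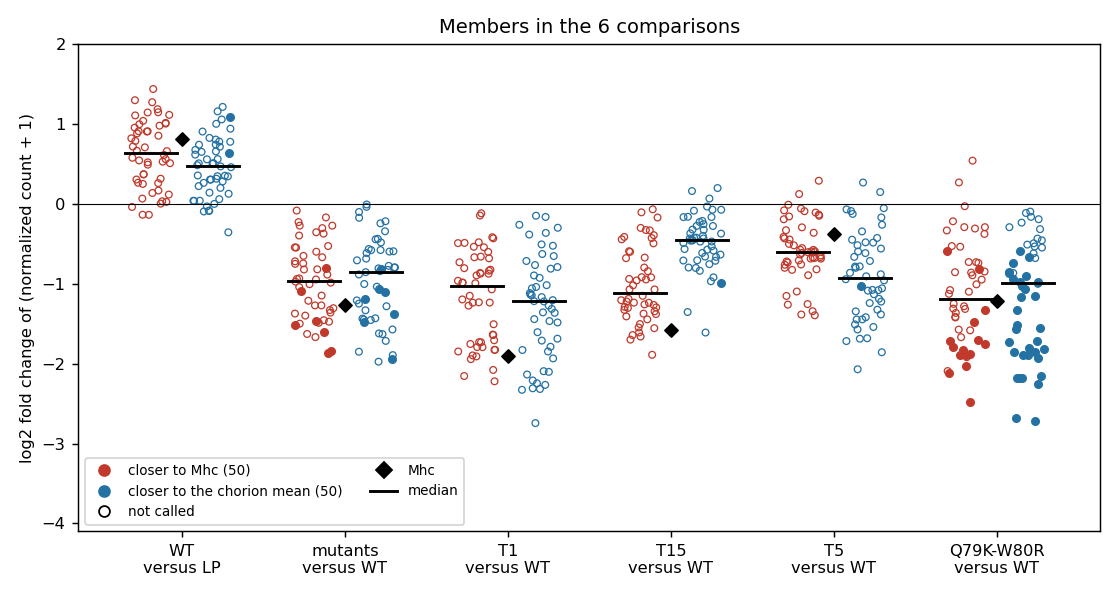
Log2 fold change of normalized count + 1 for the 50 members closer to Mhc (red) and the 50 closer to the chorion mean (blue) in the 6 comparisons. Filled points are DEGs, open points are not called, bars are medians and diamonds are Mhc. Nearly all members lie below 0 against WT, and filled points are most frequent in Q79K-W80R, where 48 members were called.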

How the data were processed

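RNA-Seq libraries (TruSeq stranded mRNA) of follicle cells were compared in 6 groups of 3. The deposited values are a signal, the normalized count of each gene, which the authors made with bcl2fastq 2.18.0.12, Bowtie (version not given) and RSEM 1.3.1, per the submitters' processing notes, and with DESeq2 scaling. The genome build is not given in the sources used here, so no coordinates or sequences are printed. Totals were 23572559 to 34164960, and 1 read was worth 0.788 to 1.34. Only 27.8 to 72.1% of low values came out as whole reads (tolerance 0.02), so a count test was not run. The record of Q79K-W80R names fewer result files than columns, and the remaining column was assigned by its shared cross name.

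log2(value + 1) was tested with limma 3.58.1 (R 4.3.3, eBayes with a trend) over genes with at least 10 in at least 3 compared libraries. The test was tried on simulated data. Trimmed mean of M values (TMM) factors were computed by formula, and figures drawn with matplotlib 3.10.9 in Python 3.11.15. Pairing by replicate number was checked by correlating deviations from group means. All correlations exceeded 0.1 in 1 of 15 group pairs, T15 with WT (0.15, 0.17 and 0.12). No label says that a number marks a shared day or cross.

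Of 168 genes on 17 lists, 165 were matched. Gene order came from the Ensembl BDGP6 annotation. The members and the lists were chosen with earlier results of these data known. Genes were named by rule: Mhc, members on any list, the 10 highest r, those around rank 100, the 5 highest means and, per comparison, up to 3 called with the largest rise and 3 with the largest fall. Others were chosen after their values were seen. Alternatives covered the minimum mean, pseudocount, rank correlation, scaling, reference gene, each library left out and the replicate block.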

Additional observations from a re-analysis of the deposited data

How the results depend on the processing

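Of the 100 members, 99 to 100 remained with pseudocounts of 5 and 0.5, 98 after TMM rescaling and 87 after quantile normalization. Fewer remained with a minimum mean of 10 (54) or 200 (56), with Spearman rho (43), within-group r (20), r over 6 group means (24), Mlc2 (63) or Prm (30) as the reference gene, and 50 to 99 with each library left out. Without WT library 2 and T1 library 1 together, an alternative chosen after seeing the data, 30 remained, 29 of them closer to Mhc, and 64 remained with the mean of the 14 muscle list members as the reference, also chosen then. Muscle list members numbered 5 with a minimum mean of 200, which removes most of them, and 8 with Prm as the reference gene. The median between-group share of a member's variance was 57.8%, beside 51.1% over all 7721 genes that could be ranked. It was 43.7% and 41.2% for members by within-group r and by group means. Members called in WT versus LP (2) were 5 with a pseudocount of 5, 5 without a filter, 1 after TMM rescaling, 0 without a trend, 0 with the replicate block and 0 to 17 with each library left out. In the mutants versus WT (14) they were 7 without a filter, 50 with all 18 libraries in the fit, 0 to 24 with each library left out and 3 without WT library 2 and T1 library 1. In T1 (0) they were 44 with all 18 libraries and 0 to 20 with each left out. In T15 (1) they were 4 with all 18 libraries, 0 without a trend, 16 with the replicate block and 0 to 7 with each left out. In T5 (1) they were 0 with a pseudocount of 0.5, 2 without a filter, 0 with a minimum mean of 50, 2 after quantile normalization, 8 with all 18 libraries, 0 without a trend, 17 with the replicate block and 0 to 26 with each left out. In Q79K-W80R (48) they were 30 to 76 with each left out. No label states that libraries of equal replicate number are paired in any comparison. The block gave 15 in the mutants, 0 in T1 and 58 in Q79K-W80R. With each library left out, the Log2FC of Mhc in T5 versus WT was -0.91 to 0.28 (-0.38 with all), and only leaving out WT library 2 made it positive. Where not stated, the cause was not tested. Mhc was called with all 18 libraries in the fit in the mutants (adjusted p = 0.0383) and T1 (0.0276). In T1 library 1, Mhc rested on about 114 reads, and this depth limits the precision of the lowest values.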
